A study of Arabidopsis thaliana with 9 samples.

Results

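Seedlings of Arabidopsis thaliana carrying a mutation in PRP39A, a gene for a protein of the U1 small nuclear ribonucleoprotein (U1 snRNP), were set against wild-type seedlings by RNA sequencing. The comparison takes 6 of the 9 libraries of the study, chosen by the genotype in the sample labels, with 3 per genotype. The prp39a plants carry the allele prp39a-3 of the insertion line SAIL_1249A03. The remaining 3 libraries come from smd1b-3, a mutant in a gene for a core protein of spliceosomal particles, and are used here to ask where prp39a differs from another splicing mutant. The wild type is Col-0. All plants were 14 days old and grown on 1/2MS medium, whole plants were extracted, and polyA RNA was made into stranded libraries. The labels call the 3 libraries of a genotype independent biological replicates. One allele of PRP39A was studied, so the mutation and anything else that its line carries cannot be told apart.

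The U1 snRNP binds the 5′ splice site at the start of an intron, by base pairing between its RNA and the letters around the exon end, and this step opens the assembly of a spliceosome. PRP39 is a protein of the U1 snRNP in budding yeast, and Arabidopsis has a pair of genes for it, PRP39A and PRP39B. When a splice site is not used, the intron can stay in the mRNA, an exon can be left out or another site can be taken, so one gene gives several mRNA isoforms.

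Levels are in TPM, transcripts per 1000000, which scale each isoform to its length and each library to the same total. The TPM of a gene is the sum over its isoforms, and the share of an isoform is its TPM as a percentage of that sum. TPM keep no sequencing depth, so the counts behind the values are unknown and a value of 0 means listed at 0. RNA from whole plants also cannot tell fewer cells of a type from less RNA per cell.

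Some libraries stood apart within their genotype. The leading axis of variation within genotypes held 42.7% of that variance, and on it prp39a replicates 2 and 3 lay at opposite ends (32.1 and -30.5), with replicate 1 near the middle (-1.6). The wild-type libraries lay at 0.9, -15.4 and 14.5 for replicates 1 to 3. The root marker genes summed to 206, 137 and 440 TPM in prp39a replicates 1, 2 and 3, against 205, 339 and 202 TPM in wild-type replicates 1, 2 and 3. The flower and seed markers summed to 7.51, 54.8 and 7.10 TPM in prp39a replicates 1, 2 and 3, against 8.30, 7.0 and 6.36 TPM in wild type. Only prp39a replicate 2 was high, with the seed storage protein gene CRU3 at 16.2 TPM there and listed at 0 in the other prp39a libraries. The leaf photosynthesis markers had a median log2 fold change of 0.02, with 0 of 13 passing in limma and 1 at an unadjusted p under 0.05, which was lower in prp39a. The root markers had a median of -0.15, with 0 of 10 passing in limma and 1 lower at an unadjusted p under 0.05; the median turned to 0.14 without prp39a replicate 2 and 0.09 without wild-type replicate 2, and was -0.53 without prp39a replicate 3 and -0.30 without wild-type replicate 3. Of the flower and seed markers 5 were tested, with a median of 1.48 and 0 passing, and 0 at an unadjusted p under 0.05; without prp39a replicate 2 only 1 of them was tested, at 0.11.

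**Figure D1:**
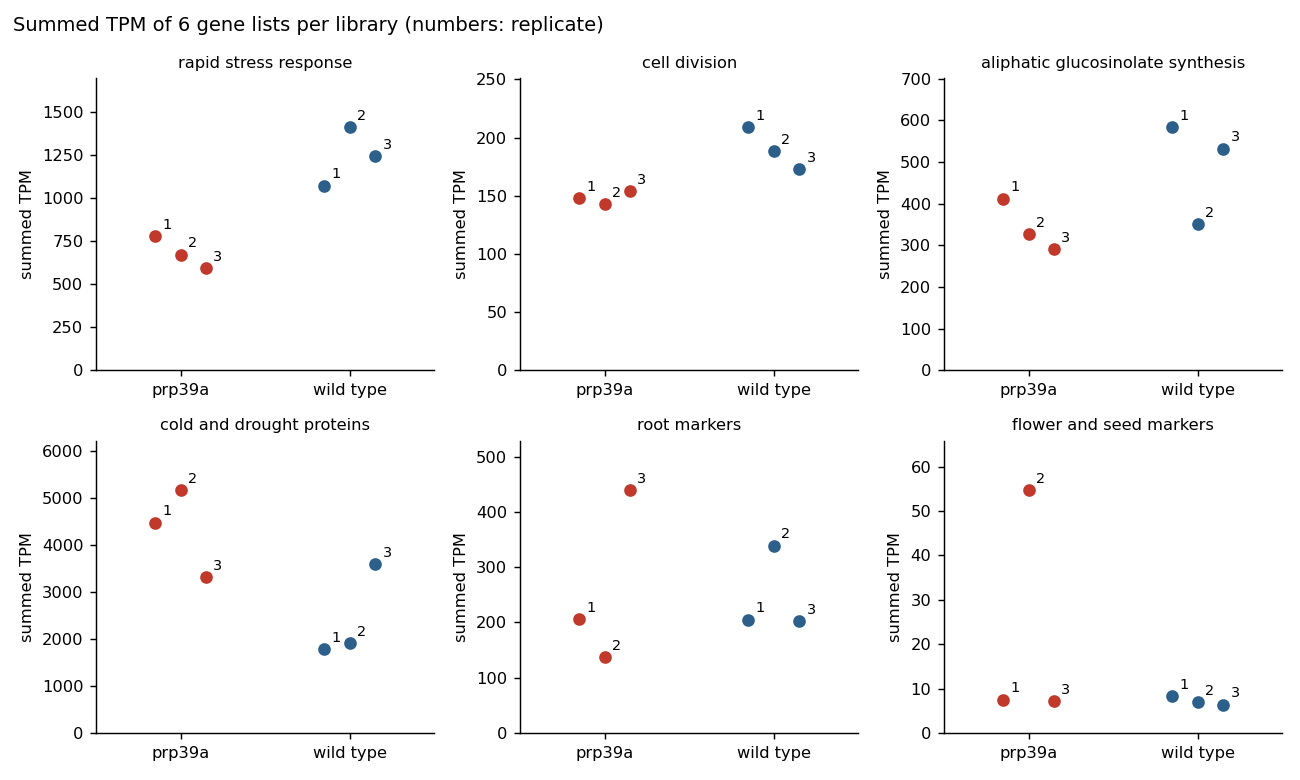
Summed TPM (vertical axes, linear from 0) of 6 gene lists in each prp39a library (red) and each wild-type library (blue), with the replicate number beside each point. The rapid stress and cell division sums did not overlap between the genotypes, the sums of the other 4 lists did, and prp39a replicate 2 alone was high in flower and seed markers.

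The isoforms of PRP39A itself differed in what was left of them. Isoform AT1G04080_P1, the main one in wild type, was at 0.254, 0 and 0.557 TPM in prp39a, against 27.0, 30.2 and 27.2 TPM in wild type. AT1G04080_s3 was at 2.62, 3.06 and 2.89 TPM in prp39a, against 3.15, 3.47 and 3.06 TPM in wild type, so its level was close in both genotypes. AT1G04080_c2 was at 2.55, 2.39 and 2.11 TPM in prp39a, against 0.575, 0.815 and 0.985 TPM in wild type. The RNA that remained in prp39a was therefore almost all of these 2 forms, whose structures are not used here. As a share of the gene, AT1G04080_s3 made up 52.0 ± 3.83% in prp39a and 6.30 ± 0.176% in wild type (SD, n = 3 each; limma adjusted p = 0.000159). AT1G04080_P1 made up 4.89 ± 5.0% in prp39a and 54.9 ± 0.548% in wild type (SD, n = 3 each; limma adjusted p = 0.000361). The gene lies at chr1:1051312-1056827 on the plus strand of TAIR10.1. Of the 5 annotated genes on each side of it, 8 were tested and 0 passed in limma; 1 had an unadjusted p under 0.05, SUVR1, with 2.67 ± 0.126 TPM in prp39a and 2.11 ± 0.148 TPM in wild type (SD, n = 3 each; adjusted p = 0.196). The next gene downstream, AT1G04090, was too low to be tested, with 0.0380, 0.0374 and 0.0372 TPM in prp39a against 0.336, 0.376 and 0.524 TPM in wild type.

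Isoform shares changed in genes of many kinds. Of 21990 isoforms tested, 2332 (10.6%) changed in share between prp39a and wild type at an adjusted p under 0.05 in limma. Of these, 1207 (5.49%) were higher in prp39a and 1125 (5.12%) were lower. The median change was 14.6 percentage points, 690 isoforms moved by over 20 points and 77 by over 40 points. The changed isoforms belonged to 1426 of 8587 genes with tested isoforms (16.6%). Leaving out 1 library at a time gave 1387 to 2306 changed isoforms; the count fell by over 1.5 times without prp39a replicate 1 (1387), prp39a replicate 3 (1499), wild-type replicate 1 (1525), wild-type replicate 2 (1460) or wild-type replicate 3 (1548).

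Most of these genes did not pass in total TPM, though more did than over all genes. Of the 1426 genes with a changed isoform, 174 (12.2%) also changed in total TPM, 100 upward and 74 downward. Over all 8587 genes with tested isoforms, 427 changed in total TPM, and over all genes tested 4.13% did. Seen from the other side, 40.7% of the 427 genes with a changed total and tested isoforms had a changed isoform, against 15.3% of the 8160 genes with tested isoforms whose total did not pass. Genes with a changed isoform had a median level of 19.1 TPM and a median of 7 introns, against 14.5 TPM and 6 introns over all genes with tested isoforms. Isoforms fall into name forms whose meaning is not given in the sources used here. Of 4148 tested isoforms with an ID suffix, 9.96% were higher and 3.11% lower in prp39a. Of 11286 isoforms with a P suffix, 4.41% were higher and 6.27% lower. Of 2403 isoforms with a plain number after a dot, 3.33% were higher and 6.66% lower.

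Exon structures could be read for isoforms whose locus and number are identical in RefSeq's annotation of TAIR10.1. In 11 genes, 1 such isoform rose and another fell, and each pair could be compared exon by exon; this set was chosen after its values were seen. An intron was kept in the isoform that rose in 5 genes, an exon was left out of it in 2, the 3′ splice site differed in 2, an intron was kept in the isoform that fell in 1, and several features differed in 1. The 5′ splice sites of the 6 retained introns, and those at the ends of the 2 skipped exons, are printed because U1 pairs at these sites. The intron of AT1G64430 is the one kept in the isoform that fell. Each line runs 5′ to 3′ along the gene from 8 exon bases into 16 intron bases, with the last 3 bases of the exon and the first 6 of the intron in capitals.
AT1G19715: tgaggATGGTATTAacatcatctt
AT3G55070: aaaacTCCGTAACGatcaaactct
AT4G02540: ctattTTGGTAACTtcttctcctg
AT4G03410: caagcGAGGTTTGCcaagtgttcc
AT5G01010: tcaaaAAGGTAGGGcgatatttac
AT1G64430: caaacCCGGTTAGTtaatcattat
AT3G17920: gcttaAAGGTTGACgttatgagtt
VAB2: aaaatTGGGTAAAAtggaacgaat
The most common base at each of these 9 positions over 129701 annotated 5′ splice sites spelled AAGGTAAGT, and the median site matched it at 6 of 9. The sites of AT1G19715, AT4G03410, AT3G17920 and VAB2 matched at 5 positions (32.5% of annotated sites have 5 or fewer). The site of AT3G55070 matched at 4 positions (8.47% of annotated sites have 4 or fewer), those of AT4G02540 and AT1G64430 at 6 (70.8% have 6 or fewer) and that of AT5G01010 at 7 (94.4% have 7 or fewer). These matches describe 8 sites and were not tested.

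The introns kept in an isoform that rose lie at chr1:6819314-6819429 (AT1G19715, minus strand), chr3:20410294-20410435 (AT3G55070, plus), chr4:1118898-1119006 (AT4G02540, plus), chr4:1503366-1503480 (AT4G03410, plus) and chr5:1460-1571 (AT5G01010, minus), all within the coding span. That of AT1G64430 lies at chr1:23936364-23936694 (plus), outside the coding span at least in part. AT5G01010 is annotated as a retinal-binding protein, and the isoform that keeps the intron, AT5G01010.3, made up 20.9 ± 1.46% of its RNA in prp39a and 6.68 ± 0.764% in wild type (SD, n = 3 each; limma adjusted p = 0.00217). The spliced form AT5G01010.1 made up 74.7%, 72.6% and 75.0% in prp39a, against 88.6%, 88.4% and 88.6% in wild type (limma adjusted p = 0.00552, n = 3 each). The genotypes did not overlap in either form. The intron-keeping form also ends earlier than the spliced one, so the intron is not the only difference between them. The first or last base also differs between the paired forms of AT1G19715, AT4G02540, AT4G03410, AT3G17920, AT3G48820, AT3G26510, VAB2 and AT1G64430. In AT3G55070, which encodes a protein with LisH and RING/U-box domains, the form with the intron made up 30.4%, 24.9% and 21.2% in prp39a, against 9.22%, 11.7% and 9.60% in wild type (limma adjusted p = 0.00376, n = 3 each). All prp39a values were above all wild-type values, while the gene total was 26.7 TPM in prp39a and 27.5 TPM in wild type.

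In AT4G02540, a gene for a cysteine/histidine-rich C1 domain protein, the form with the intron was the major one in both genotypes, with 86.5 ± 1.59% in prp39a and 71.2 ± 1.62% in wild type (SD, n = 3 each; limma adjusted p = 0.00609). Its total also fell, to 26.8 TPM in prp39a against 39.6 TPM in wild type (limma adjusted p = 0.0228). In AT1G19715, a gene for a mannose-binding lectin family protein, the form with the intron made up 22.1 ± 1.17% in prp39a and 8.40 ± 2.83% in wild type (SD, n = 3 each; limma adjusted p = 0.0158), and the call was lost without prp39a replicate 1 or wild-type replicates 1 or 2 (adjusted p 0.0505 to 0.0580). In AT4G03410, a gene for a Mpv17/PMP22 family protein, it made up 12.3 ± 1.75% in prp39a and 5.41 ± 0.967% in wild type (SD, n = 3 each; limma adjusted p = 0.0254). That call was lost without prp39a replicates 1 or 2 or wild-type replicates 2 or 3 (adjusted p 0.0644 to 0.0906). The reverse was seen in AT1G64430, a pentatricopeptide repeat gene. There the form that keeps an intron made up 5.04 ± 0.145% in prp39a and 11.3 ± 0.149% in wild type (SD, n = 3 each; limma adjusted p = 0.00601).

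VAB2 encodes a B subunit of the vacuolar proton pump and gave the largest change among these pairs. A 73-base exon lies between introns at chr4:18014976-18015065 and chr4:18014797-18014902 on the minus strand. The region of these introns is outside the coding span at least in part. The form without it, AT4G38510.2, made up 86.2%, 88.5% and 82.3% in prp39a, against 38.1%, 32.2% and 36.1% in wild type (limma adjusted p = 0.000131, n = 3 each). The form with it, AT4G38510.3, made up 2.67%, 4.28% and 4.60% in prp39a, against 34.7%, 41.2% and 41.9% in wild type (limma adjusted p = 0.000110, n = 3 each). The form without the exon gained 50.2 points and the form with it lost 35.4 points, so other forms of VAB2 lost share too. The gene total was 105 TPM in prp39a and 109 TPM in wild type. The forms AT4G38510.2 and AT4G38510.3 also differed between prp39a and smd1b (limma adjusted p = 0.000445 and 0.000121), a comparison in which 2978 isoforms (13.5%) passed, 1520 (6.91%) higher and 1458 (6.63%) lower in prp39a. In AT3G17920, annotated as an outer arm dynein light chain 1 protein, the form without a 96-base exon, which lies between introns at chr3:6137696-6137792 and chr3:6137889-6137982 on the plus strand, made up 96.3 ± 1.5% in prp39a and 84.5 ± 1.93% in wild type (SD, n = 3 each; limma adjusted p = 0.00170). That region, too, is outside the coding span at least in part. Another 3′ splice site was taken in AT5G25770, an alpha/beta-hydrolase gene. Its form AT5G25770.3 made up 26.4 ± 2.79% in prp39a and 48.2 ± 5.62% in wild type (SD, n = 3 each; limma adjusted p = 0.00637), and AT5G25770.2 made up 12.3 ± 2.25% in prp39a and 3.55 ± 0.405% in wild type (SD, n = 3 each; limma adjusted p = 0.00502).

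**Figure D2:**
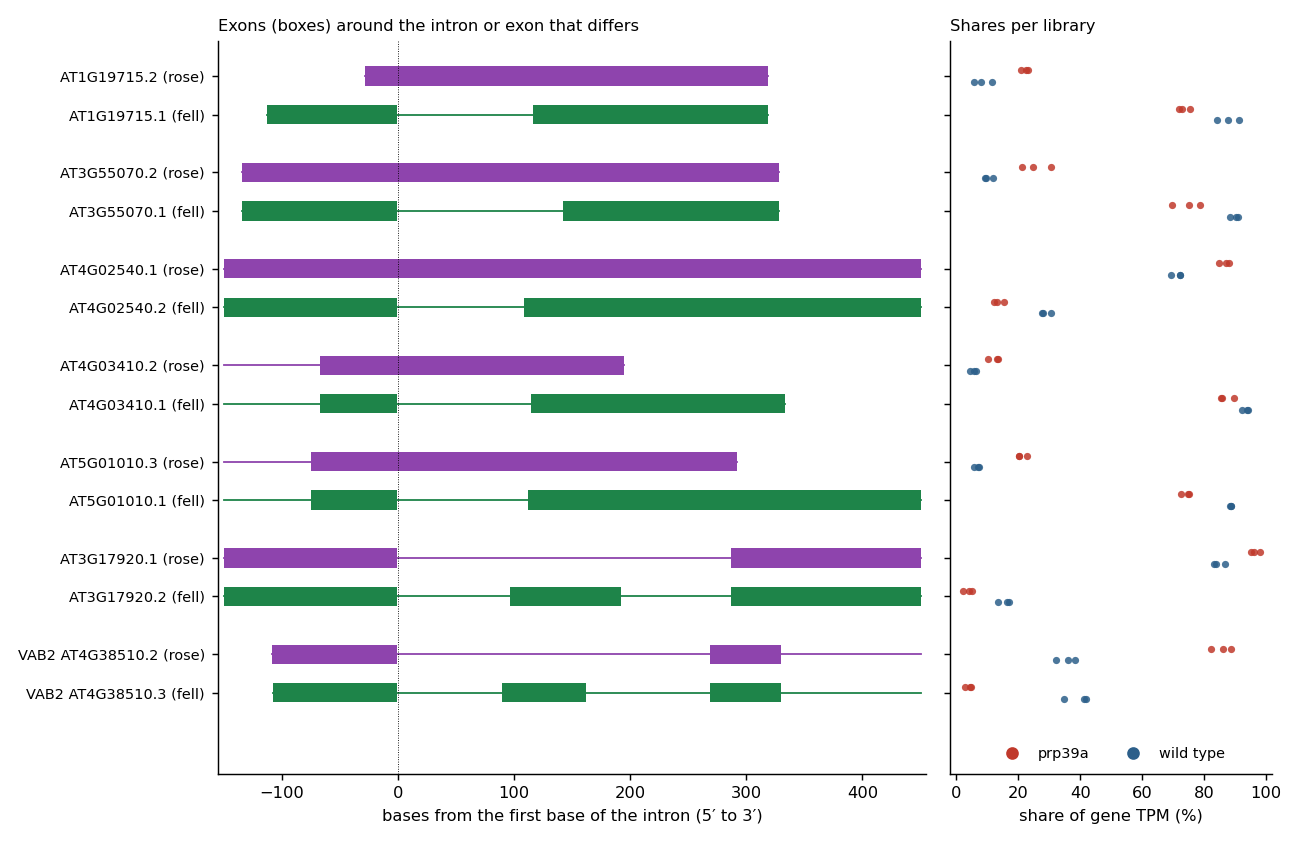
Left, exons (boxes) of isoform pairs of 7 genes, in bases from the first base of the intron that is retained or that precedes the skipped exon, with the isoform that rose in purple and the one that fell in green. Right, the share of gene TPM (%) of each isoform in each prp39a library (red) and wild-type library (blue). In VAB2 the form without the exon sits at 82.3% to 88.5% in prp39a, above all wild-type libraries.

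In 646 of 8587 genes the isoform with the highest mean share was not the same in prp39a as in wild type, and in 179 of them both isoforms passed the test. Of these 179 genes, 38 changed in total TPM, where 4.13% of all genes and 12.2% of genes with a changed isoform did. RABG3B encodes a small GTPase of the Rab7 type, which acts in traffic to the vacuole. Its isoform AT1G22740.1 made up 1.33%, 1.51% and 4.95% in prp39a, against 56.6%, 62.1% and 58.0% in wild type (limma adjusted p = 0.000159, n = 3 each). AT1G22740_ID6 made up 32.1%, 27.2% and 32.0% in prp39a, against 5.20%, 4.18% and 4.97% in wild type (limma adjusted p = 0.000310, n = 3 each). The gene total was nearly equal, at 103 TPM in prp39a and 100 TPM in wild type, so what the genotypes did not share was the form of the RNA.

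GATA26, a GATA-type transcription factor gene, showed the same pattern. Its isoform AT4G17570_P1 made up 10.9%, 4.48% and 8.07% in prp39a, against 64.6%, 60.7% and 58.0% in wild type (limma adjusted p = 0.000159, n = 3 each). AT4G17570_P3 made up 86.9%, 90.2% and 91.4% in prp39a, against 34.0%, 38.1% and 31.3% in wild type (limma adjusted p = 0.000495, n = 3 each). KEA6 encodes a potassium efflux antiporter, and its isoform AT5G11800_ID52 made up 51.1%, 52.6% and 54.5% in prp39a, against 5.71%, 6.83% and 8.34% in wild type (limma adjusted p = 0.000222, n = 3 each). For RUS3, of the ROOT UVB SENSITIVE family, AT1G13770_P1 was listed at 0% in prp39a replicates 1 and 2 and at 1.13% in replicate 3, against 56.4%, 67.1% and 56.6% in wild type (limma adjusted p = 2.59e-05, n = 3 each). In each of these 4 genes the prp39a and wild-type values did not overlap, and the named isoforms also differed from smd1b in limma, with adjusted p between 7.72e-06 and 0.00611.

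LBD13, a LOB domain transcription factor gene, was led by AT2G30340_P2 in prp39a (77.5 ± 3.33%, against 16.9 ± 8.59% in wild type; SD, n = 3 each; limma adjusted p = 0.000519). Its total was low, at 2.91 TPM in prp39a and 4.98 TPM in wild type. AT1G79529, a non-coding RNA gene, was led by AT1G79529_ID1 in prp39a (87.4 ± 4.95%, against 34.7 ± 3.40% in wild type; SD, n = 3 each; limma adjusted p = 0.000288). In that gene smd1b had 76.9%, and the difference between the mutants did not pass (limma adjusted p = 0.120). AT1G27580, an F-box gene, is drawn among the 12 largest changes but is unsteady in wild type: AT1G27580_P1 made up 0%, 7.19% and 0% in prp39a, against a mean of 59.1 ± 38.4% in wild type (SD, n = 3; limma adjusted p = 0.0332). That call was lost without any single prp39a library or without wild-type replicates 1 or 2 (adjusted p 0.0593 to 0.111).

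**Figure D3:**
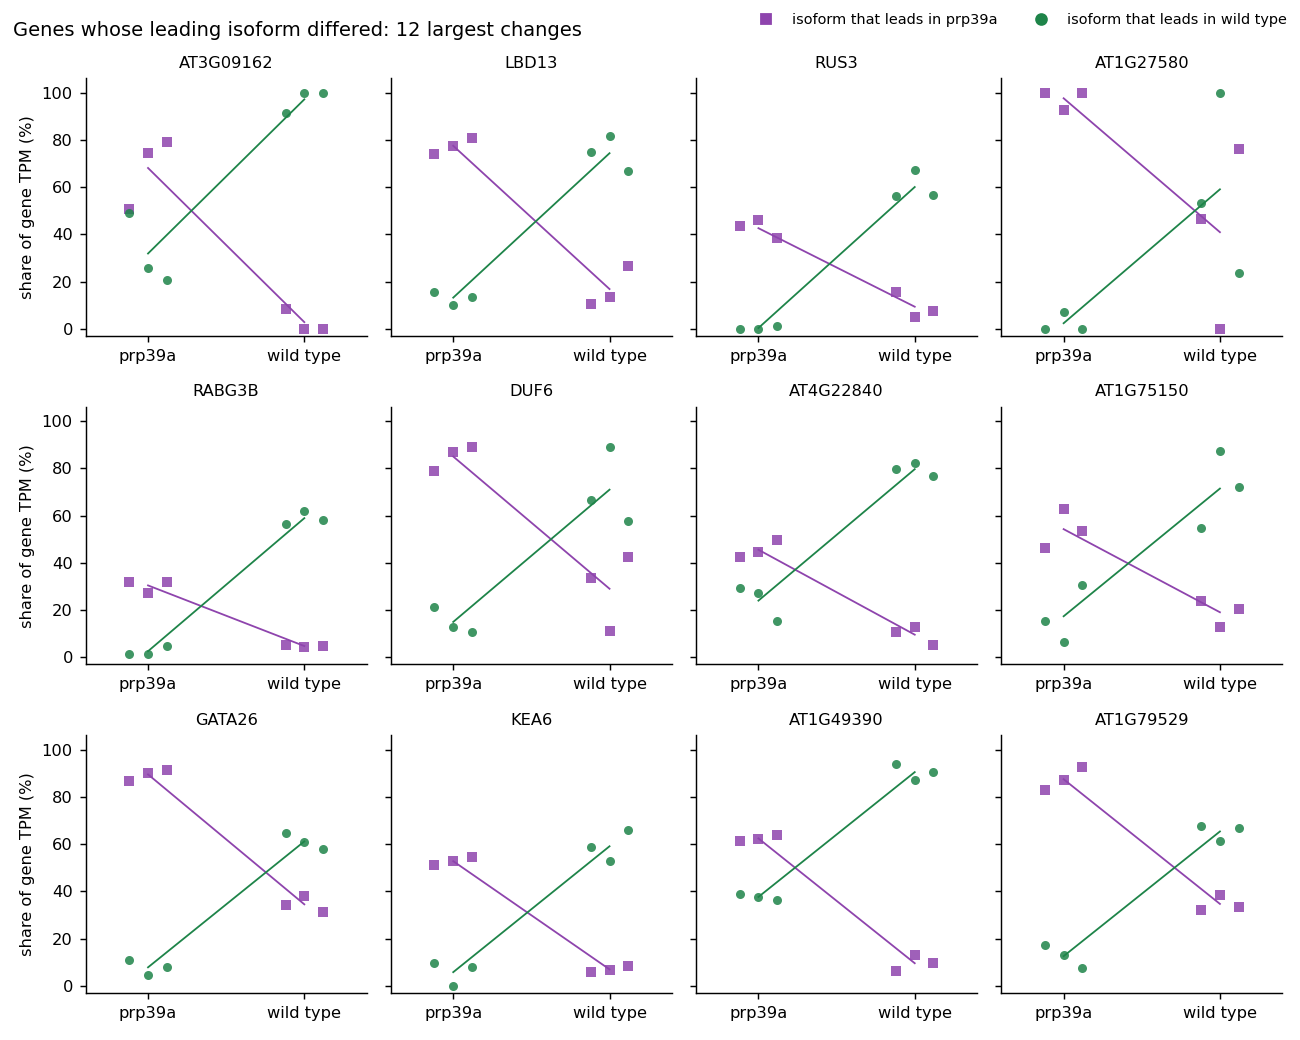
Share of gene TPM (%) of the isoform that leads in prp39a (purple squares) and of the one that leads in wild type (green circles), per library, for the 12 genes with the largest changes; lines join the genotype means. The isoforms exchange the lead in every panel, and AT1G27580 is the one whose wild-type libraries spread widely, with 1 of them at 23.9% for the isoform that leads in wild type.

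Among the isoforms with the smallest adjusted p, several were listed at or near 0 in every prp39a library. AT4G24740_P2, of the gene FC2 for a LAMMER-type kinase (AFC2) of a family that phosphorylates SR splicing factors, was listed at 0 or at most 5.26e-09% in prp39a, against 13.5%, 14.0% and 16.6% in wild type (limma adjusted p = 3.20e-05, n = 3 each). AT1G76520_P1, of an auxin efflux carrier family gene, made up at most 0.000326% in prp39a, against 19.8%, 17.8% and 18.5% in wild type (limma adjusted p = 6.37e-06, n = 3 each). AT2G24690_P2, of a B3 family transcription factor gene, was likewise near 0 in prp39a, against 38.7%, 41.8% and 33.7% in wild type (limma adjusted p = 3.20e-05, n = 3 each). The same held for AT3G52340_P1 of SPP2, a sucrose phosphate phosphatase gene (15.5 ± 3.63% in wild type), and for AT3G27460_P1 of SGF29a, a gene for a tudor-like domain protein (27.1 ± 4.97% in wild type).

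Others were shifted but kept. BSH encodes a SNF5-type subunit of chromatin remodelling complexes, and its isoform AT3G17590_P1 made up 51.4%, 48.2% and 47.7% in prp39a, against 96.5%, 94.7% and 95.3% in wild type (limma adjusted p = 0.000109, n = 3 each). PGM encodes the plastid phosphoglucomutase of starch synthesis, and its isoform AT5G51820_P1 made up 85.5%, 87.5% and 87.8% in prp39a, against 98.7%, 98.2% and 98.8% in wild type (limma adjusted p = 0.000109, n = 3 each). The clock gene PRR7 was the only member of a 17-gene clock list with changed isoforms, among 13 with tested isoforms (7.7%, against 16.6% of all genes). Its AT5G02810_P1 made up 62.1 ± 2.54% in prp39a and 39.8 ± 3.27% in wild type (SD, n = 3 each; limma adjusted p = 0.00371), while AT5G02810_c2 was near 0 in prp39a and at 8.90 ± 1.13% in wild type. Each of these isoforms passed in every alternative that tested it. Some alternatives, such as a narrower range of shares, did not test AT5G51820_P1 and AT5G02810_c2.

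Genes for the U1 snRNP itself were among those with changed isoforms. This list and the gene lists below were chosen with earlier results of these data known. Their counts describe the members and are not a test. Of 12 U1 genes tested, only PRP39A passed, and the median log2 fold change was -0.04, beside -0.07 over all genes. Of the 10 with tested isoforms, 5 had a changed one (against 16.6% of all genes). PRP39A, the mutated gene itself, is among these 5. U1-70K, which binds the U1 RNA directly, was at 61.6 ± 3.22 TPM in prp39a and 63.1 ± 1.0 TPM in wild type (SD, n = 3 each). Its isoform AT3G50670_s2 made up 4.0%, 3.03% and 6.31% in prp39a, against 25.1%, 26.2% and 24.9% in wild type (limma adjusted p = 0.000685, n = 3 each). In smd1b the same isoform made up 6.69%, and prp39a did not pass against it (limma adjusted p = 0.215). The LUC7 genes encode U1-associated proteins that act in 5′ splice site choice in yeast. LUC7A isoform AT3G03340_ID1 made up 14.6 ± 2.34% in prp39a and 31.3 ± 1.89% in wild type (SD, n = 3 each; limma adjusted p = 0.00398). LUC7B isoform AT5G17440_s4 made up 1.89 ± 0.307% in prp39a and 10.7 ± 2.39% in wild type (SD, n = 3 each; limma adjusted p = 0.00666). LUC7RL isoform AT5G51410_JC5 made up 40.3 ± 1.84% in prp39a and 15.7 ± 6.24% in wild type (SD, n = 3 each; limma adjusted p = 0.0116).

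SR proteins bind exons and guide the choice of splice sites. Of 20 SR genes tested, 2 rose and 1 fell in level (4 and 1 when libraries were scaled by size factors), where 1.73% of all genes rose and 2.39% fell. In 8 of the 20 every prp39a library was above every wild-type library, as in 9.42% of all genes. In 2 every one was below, as in 18.6% of all genes. At an unadjusted p under 0.05 in limma, 7 were higher and 1 lower, and the median log2 fold change was 0.02. The calls of RS40, which rose, and RS41, which fell, were each lost without 6 single libraries (adjusted p 0.0517 to 0.117 and 0.0532 to 0.107). Of the 19 with tested isoforms, 5 had a changed one (26.3%, against 16.6% of all genes). Counted by isoform, 4 of 64 were higher and 3 lower in share, near the 5.49% and 5.12% of all isoforms. SR30 isoform AT1G09140_P1 made up 5.39%, 7.23% and 5.56% in prp39a, against 25.5%, 25.5% and 22.9% in wild type (limma adjusted p = 0.000571, n = 3 each). AT1G09140_P2 made up 84.3%, 83.4% and 85.5% in prp39a, against 65.7%, 65.5% and 70.1% in wild type (limma adjusted p = 0.00489, n = 3 each). In smd1b these forms made up 40.1% and 44.0%, on the other side of wild type from prp39a, and both differed between the mutants (limma adjusted p = 0.000125 and 0.000209). RS31 isoform AT3G61860_ID2 made up 58.3 ± 2.71% in prp39a and 37.6 ± 3.1% in wild type (SD, n = 3 each; limma adjusted p = 0.0119). The remaining SR genes with a changed isoform were SR45, SR34B and RS2Z33, each of whose calls was lost without at least 3 of the 6 libraries taken one at a time.

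Flowering-time regulators that act on or beside FLC had changed isoforms as well. The autonomous pathway holds RNA-binding and RNA-processing proteins that keep FLC low, and 3 of its 7 genes with tested isoforms had a changed one (42.9%, against 16.6% of all genes). FPA isoform AT2G43410_P1 made up 4.93%, 8.30% and 2.46% in prp39a, against 27.4%, 23.5% and 16.8% in wild type (limma adjusted p = 0.00786, n = 3 each), without overlap. The FY isoform AT5G13480_JS2 was near 0 in prp39a, against 6.28%, 17.7% and 13.8% in wild type (limma adjusted p = 0.0207). That call was lost without any single prp39a library (adjusted p 0.0563 to 0.0614). The remaining gene was FLK, with calls for AT3G04610_JS6 and AT3G04610_P2. These were lost without 6 and 2 single libraries (limma adjusted p 0.0514 to 0.137 and 0.0538 to 0.0581). MAF1 and MAF3 are MADS-box relatives of FLC that also repress flowering. Of the 6 genes of the FLC clade tested, FLC, MAF1 and MAF3 rose and 0 fell, with a median log2 fold change of 0.35, where 1.73% of all genes rose. This list was chosen with earlier results of these data known. The clade did not move as a whole. In 2 of the 6 every prp39a library was below every wild-type library, as in 18.6% of all genes. Of these 2, 1 had an unadjusted p under 0.05 in limma. FLC had 22.7, 32.0 and 21.8 TPM in prp39a, against 7.39, 8.53 and 7.03 TPM in wild type, without overlap (limma adjusted p = 0.00268, n = 3 each). The form AT1G77080.2 of MAF1 made up 1.07%, 1.29% and 0.851% in prp39a, against 9.62%, 15.2% and 9.64% in wild type (limma adjusted p = 0.000222, n = 3 each). The form AT5G65060_s1 of MAF3 made up 10.03 ± 3.75% in prp39a and 23.4 ± 1.04% in wild type (SD, n = 3 each; limma adjusted p = 0.00974). Both forms fell in share while the totals of both genes rose, to 73.0 TPM in prp39a against 43.7 TPM in wild type for MAF1 (limma adjusted p = 0.0101) and to 35.4 TPM in prp39a against 23.4 TPM in wild type for MAF3 (limma adjusted p = 0.00424).

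Post-transcriptional silencing turns foreign or aberrant RNA into small RNA, and RNA decay competes for the same RNA. Of 11 silencing and decay genes with tested isoforms, 4 had a changed one (36.4%, against 16.6% of all genes). SDE5, a silencing gene that acts beside RDR6 and SGS3, was at 5.74 TPM in prp39a and 5.82 TPM in wild type. Its isoform AT3G15390_P1 made up 25.3%, 19.6% and 32.2% in prp39a, against 62.4%, 60.4% and 71.7% in wild type (limma adjusted p = 0.00849, n = 3 each). AT3G15390_P3 made up 34.4%, 43.5% and 14.2% in prp39a and was listed at 0 in every wild-type library (limma adjusted p = 0.0109, n = 3 each). VCS, a scaffold of mRNA decapping, had AT3G13300_P1 at 77.3 ± 3.54% in prp39a and 60.0 ± 2.57% in wild type (SD, n = 3 each; limma adjusted p = 0.00668). In neither gene did prp39a pass against smd1b for these isoforms (limma adjusted p 0.135 to 0.289). The changed isoforms of XRN3 and SMD1A were lost without any one of at least 4 libraries. Among 8 DNA methylation genes with tested isoforms, CMT2 and DME had a changed one (25.0%, against 16.6% of all genes). Those calls were lost without 6 and 2 single libraries. Counted by isoform, 2 of 19 in this list were higher and 0 lower in share, where 10.6% of all isoforms changed. In level, 1 member fell in each of these lists, where 2.39% of all genes fell: FLK of the 11 autonomous pathway genes tested (list median -0.17), AGO1 of the 17 silencing and decay genes (-0.02) and CLSY1 of the 14 DNA methylation genes (-0.17). Their calls were lost without 9, 7 and 2 single libraries (adjusted p 0.0520 to 0.163).

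The totals of genes were tested in the same fit design. Of 20585 genes tested, 850 (4.13%) passed in limma, with 357 (1.73%) higher and 493 (2.39%) lower in prp39a. The median over all genes was -0.07 on the log2 scale; when libraries were scaled by size factors instead, which brought that median near 0, the split was 614 higher and 381 lower. The median size of a change was 0.54 on the log2(TPM + 0.5) scale, which understates changes of low genes, and 83 genes changed at least 2-fold, 37 of them higher. Leaving out 1 library of the comparison gave 273, 437 and 714 genes without prp39a replicates 1, 2 and 3, and 361, 218 and 408 without wild-type replicates 1, 2 and 3. Leaving out smd1b replicate 3, which enters through the shared spread, gave 489. Against smd1b the same fit gave 4336 genes (21.1%), 1316 (6.39%) higher and 3020 (14.7%) lower in prp39a; with size factors that split was 2194 higher and 2027 lower. Without regard to the test, every prp39a library was above every wild-type library in 1940 genes (9.42%) and below in 3837 (18.6%).

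Ranks below the 8 largest rises held genes of several kinds. PLC5, a phosphoinositide-specific phospholipase C gene, had 12.2, 13.9 and 13.1 TPM in prp39a, against 4.67, 5.33 and 4.69 TPM in wild type (log2 fold change 1.33 ± 0.0882 SE, limma adjusted p = 0.000199). PIP5K5, for a kinase that makes the phosphoinositide these enzymes cut, had 12.4, 11.4 and 14.1 TPM in prp39a, against 4.49, 4.46 and 4.27 TPM in wild type (log2 fold change 1.42 ± 0.104 SE, limma adjusted p = 0.000411). Both were above every wild-type library, which the choice of genes required, and both passed in every alternative. AT4G36190, for a serine carboxypeptidase S28 family protein, had 93.7, 82.4 and 85.2 TPM in prp39a, against 39.0, 38.1 and 38.1 TPM in wild type (log2 fold change 1.17 ± 0.0668 SE, limma adjusted p = 7.94e-05). AT1G52315, for a protein of a Vps4 regulator family, had 6.06, 7.03 and 6.18 TPM in prp39a, against 2.00, 1.95 and 1.80 TPM in wild type (log2 fold change 1.52 ± 0.109 SE, limma adjusted p = 0.000362). GSTU2, a tau-class glutathione transferase gene, had 17.0, 21.9 and 18.0 TPM in prp39a, against 7.14, 7.71 and 8.60 TPM in wild type (log2 fold change 1.22 ± 0.114 SE, limma adjusted p = 0.00158). All 5 genes also differed from smd1b in limma, with adjusted p between 4.23e-05 and 0.000956.

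IAA29, an Aux/IAA gene of the auxin response, had 95.4, 72.4 and 61.9 TPM in prp39a, against 19.7, 30.7 and 40.1 TPM in wild type (log2 fold change 1.36 ± 0.234 SE, limma adjusted p = 0.0180). Its libraries did not overlap, which the choice of the largest rises required, but were spread. The IAA29 call was lost without prp39a replicate 1 or wild-type replicate 2 (adjusted p 0.0640 and 0.0633). IAA29 was the only one of 16 auxin genes tested that passed, where 1.73% of all genes rose. The near-identical neighbours AT3G28290 and AT3G28300, both named AT14A, carried the same values, 88.6, 88.0 and 69.6 TPM in prp39a against 27.2, 30.8 and 40.6 TPM in wild type (log2 fold change 1.32 ± 0.175 SE, limma adjusted p = 0.00689). Reads of such copies can be divided between them, so they count as one uncertain result. A non-coding RNA, AT5G19221, had 7.88 ± 0.989 TPM in prp39a and 3.0 ± 0.217 TPM in wild type (SD, n = 3 each; limma adjusted p = 0.00158), and AT1G03165 had 14.0 ± 1.15 TPM in prp39a and 5.67 ± 1.11 TPM in wild type (SD, n = 3 each; limma adjusted p = 0.00353).

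Among the falls below the 8 largest, the precursor of MIR408, a microRNA that targets copper protein mRNAs, had 5.85, 7.29 and 7.18 TPM in prp39a, against 13.7, 19.9 and 19.4 TPM in wild type (log2 fold change -1.31 ± 0.169 SE, limma adjusted p = 0.00597). DIC2, for a mitochondrial dicarboxylate carrier, had 9.01, 7.01 and 8.05 TPM in prp39a, against 17.3, 34.8 and 33.5 TPM in wild type (log2 fold change -1.71 ± 0.241 SE, limma adjusted p = 0.00863). CYP707A3, for an enzyme that breaks down abscisic acid, had 3.07, 2.25 and 2.76 TPM in prp39a, against 5.54, 7.68 and 8.27 TPM in wild type (log2 fold change -1.25 ± 0.160 SE, limma adjusted p = 0.00584). No prp39a library reached the lowest wild-type library in any of the 3, which the choice of genes required. AT5G53820, a late embryogenesis abundant family gene, had 2.36, 3.48 and 3.08 TPM in prp39a, against 8.47, 8.46 and 7.15 TPM in wild type (log2 fold change -1.30 ± 0.162 SE, limma adjusted p = 0.00527). The ERF family gene AT5G51190 had 11.3 ± 0.343 TPM in prp39a and 31.7 ± 10.9 TPM in wild type (SD, n = 3 each; limma adjusted p = 0.0131), and DREB26 had 14.1 ± 1.82 TPM in prp39a and 35.9 ± 6.14 TPM in wild type (SD, n = 3 each; limma adjusted p = 0.0115). The DREB26 call was lost without wild-type replicate 2 (adjusted p = 0.0529), and that of PHI-1, with 21.3 TPM in prp39a and 69.5 TPM in wild type, was lost without any single library of the comparison (adjusted p 0.0539 to 0.144). DIC2, DREB26 and PHI-1 did not pass against smd1b (limma adjusted p = 0.164, 0.0918 and 0.714).

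**Figure D4:**
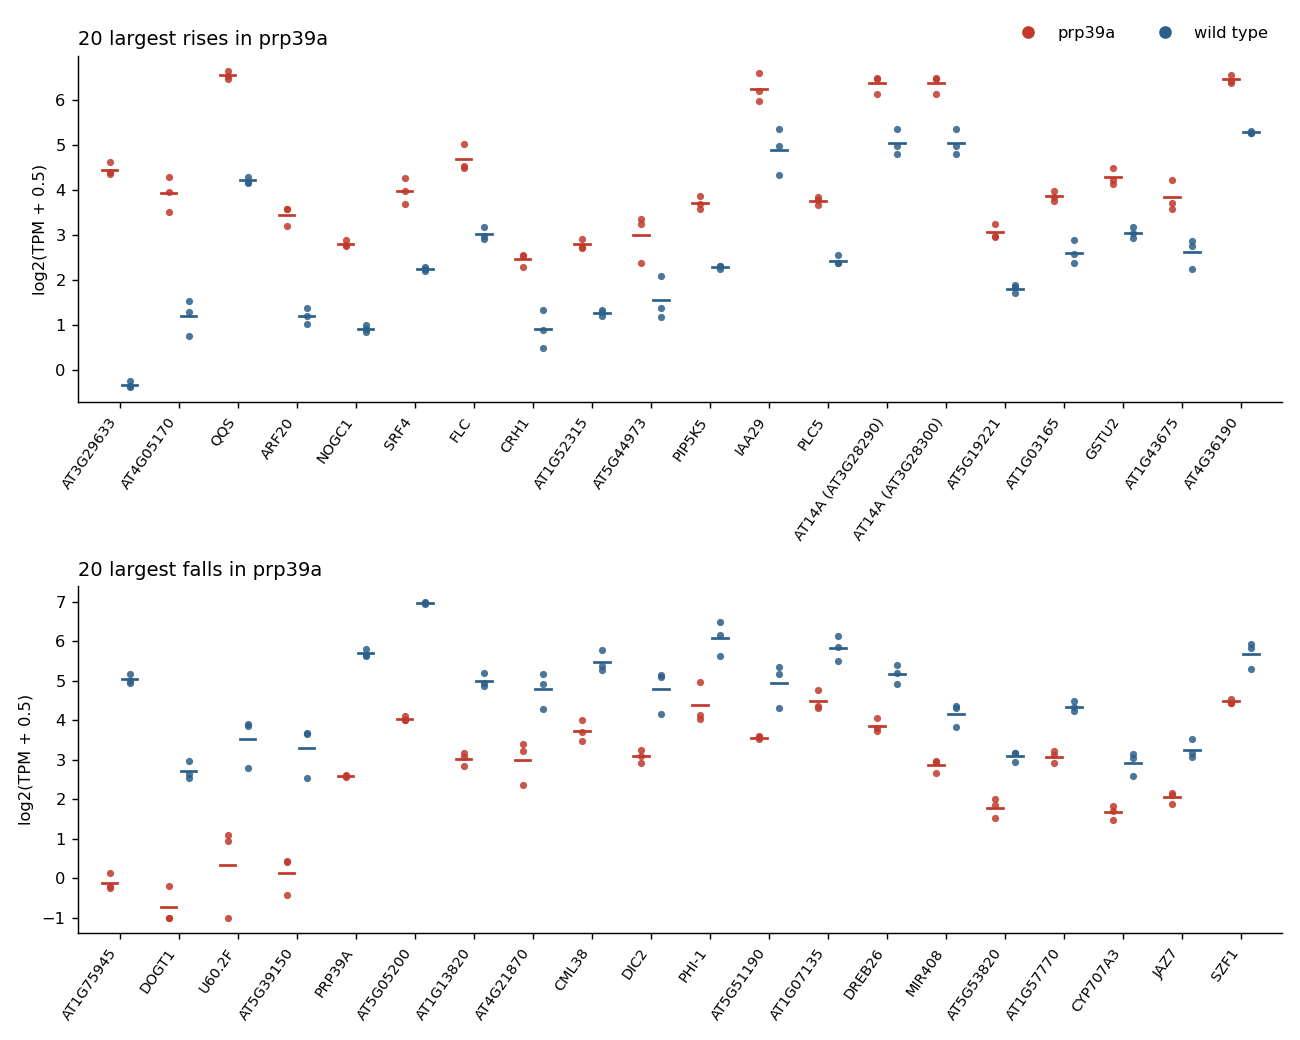
log2(TPM + 0.5) of the 20 largest rises (top) and 20 largest falls (bottom) in each prp39a library (red, left) and wild-type library (blue, right); horizontal bars are means of 3 libraries. The points of the genotypes do not overlap for any gene, which the choice of genes required.

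Most genes of the rapid stress response fell. These are early genes for transcription factors, calcium sensors and kinases that seedlings switch on within minutes of touch, wounding or microbial signals. Of 18 tested, 11 fell and 0 rose, where 2.39% of all genes fell and 1.73% rose. The list was chosen with earlier results of these data known, so its counts describe the members and are not a test. All 18 log2 fold changes were below 0 (17 of 18 without prp39a replicates 1 or 3 or wild-type replicate 3), and the median was -0.77, beside -0.07 over all genes. In 15 of them every prp39a library was below every wild-type library, as in 18.6% of all genes. The calcium sensor gene CML38 had 15.5, 10.7 and 12.5 TPM in prp39a, against 40.9, 54.1 and 38.1 TPM in wild type (log2 fold change -1.74 ± 0.171 SE, limma adjusted p = 0.00186). The transcription factor gene WRKY18 had 18.9, 21.8 and 19.4 TPM in prp39a, against 38.5, 52.6 and 45.1 TPM in wild type (log2 fold change -1.15 ± 0.114 SE, limma adjusted p = 0.00186). The touch-induced calmodulin-like gene TCH2 had 53.9, 49.3 and 55.1 TPM in prp39a, against 88.7, 104 and 95.5 TPM in wild type (log2 fold change -0.86 ± 0.0908 SE, limma adjusted p = 0.00268). SZF1, for a zinc finger protein, had 22.7, 21.3 and 21.2 TPM in prp39a, against 38.6, 60.7 and 55.8 TPM in wild type (log2 fold change -1.21 ± 0.144 SE, limma adjusted p = 0.00431). These 4 calls held in every alternative, and all 4 genes were also lower than in smd1b (limma adjusted p 0.000341 to 0.0181).

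The other 7 members that fell were ERF6, ERF11, MPK3, TCH3, WRKY33, WRKY40 and WRKY53. ERF6 had 13.8 ± 2.71 TPM in prp39a and 28.4 ± 5.90 TPM in wild type (SD, n = 3 each; limma adjusted p = 0.0177), and MPK3, a mitogen-activated protein kinase gene, had 104 ± 2.40 TPM in prp39a and 142 ± 15.1 TPM in wild type (SD, n = 3 each; limma adjusted p = 0.0356). The xyloglucan enzyme gene TCH4 had 245, 208 and 127 TPM in prp39a, against 366, 470 and 360 TPM in wild type, without overlap, and did not pass (limma adjusted p = 0.0786). The number of members that fell was 7, 5 and 7 without prp39a replicates 1, 2 and 3, and 13, 4 and 5 without wild-type replicates 1, 2 and 3. It was 8 with size factors, and 6 with the replicate block or with the 6 libraries alone. TCH3 was the only member with a changed isoform, AT2G41100_JC1, at 35.8 ± 12.4% in prp39a and 10.5 ± 3.17% in wild type (SD, n = 3 each; limma adjusted p = 0.00668). Wild-type replicate 1 was the lowest wild-type library of the summed list (1070 TPM, against 1410 and 1240 TPM in replicates 2 and 3), and every prp39a library was lower still (779, 670 and 592 TPM). The smd1b libraries lay between the genotypes, below every wild-type library, at 869, 1040 and 910 TPM in smd1b replicates 1, 2 and 3.

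MYB28, the main transcriptional activator of aliphatic glucosinolate genes, fell to 12.9, 14.8 and 14.3 TPM in prp39a, against 27.2, 24.1 and 24.2 TPM in wild type (log2 fold change -0.82 ± 0.0767 SE, limma adjusted p = 0.00158). Its prp39a libraries were all below its wild-type libraries, the call held in every alternative, and it was also lower than in smd1b (limma adjusted p = 0.000141). The list of pathway genes was chosen with earlier results of these data known, so its counts are not a test. All 13 tested genes of this pathway, which makes methionine-derived defence compounds, had log2 fold changes below 0 (12 of 13 without prp39a replicate 3 or wild-type replicate 1). Their median was -0.43, beside -0.07 over all genes, and 3 passed, all lower, where 2.39% of all genes fell. The other 2 were SUR1 and CYP79F2, each lost without any single library of the comparison (adjusted p 0.0554 to 0.129). MAM1, the chain-elongation enzyme gene, had 122, 66.1 and 61.9 TPM in prp39a, against 142, 60.7 and 142 TPM in wild type, so the genotypes overlapped (limma adjusted p = 0.541). Its neighbour in the pathway MAM3 changed in isoforms: AT5G23020_ID4 made up 18.0%, 18.2% and 19.5% in prp39a, against 2.58%, 4.70% and 2.67% in wild type (limma adjusted p = 0.00121, n = 3 each). MYB28 and BAT5 also had changed isoforms, so 3 of 4 pathway genes with tested isoforms did (75.0%, against 16.6% of all genes), although the calls of MYB28 and BAT5 were lost without 4 or more single libraries.

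Of 13 nitrate genes tested, 3 fell and 1 rose, where 2.39% of all genes fell and 1.73% rose. NIR1, for nitrite reductase, had 84.7, 83.1 and 93.7 TPM in prp39a, against 151, 137 and 128 TPM in wild type (log2 fold change -0.66 ± 0.116 SE, limma adjusted p = 0.0191). UPM1, for an enzyme that makes the sirohaem of nitrite reductase, had 53.8 ± 3.13 TPM in prp39a and 81.6 ± 7.0 TPM in wild type (SD, n = 3 each; limma adjusted p = 0.0164), and NIA1, for a nitrate reductase, had 41.3 ± 3.55 TPM in prp39a and 66.3 ± 6.21 TPM in wild type (SD, n = 3 each; limma adjusted p = 0.0385). ASN1, an asparagine synthetase gene that dark and low sugar raise, had 819, 703 and 719 TPM in prp39a, against 370, 525 and 478 TPM in wild type (log2 fold change 0.72 ± 0.147 SE, limma adjusted p = 0.0308). The list had a median log2 fold change of -0.22, and in none of the 4 did the genotypes overlap. The calls are fragile: those of NIR1 and UPM1 were lost without prp39a replicate 1 or wild-type replicates 1 or 2 (adjusted p 0.0550 to 0.0709), that of NIR1 also without prp39a replicate 2, and those of NIA1 and ASN1 without any single library of the comparison (adjusted p 0.0529 to 0.130). Without prp39a replicate 1 or wild-type replicates 1 or 2, 0 of the 13 passed.

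EXPA8, for an expansin that loosens cell walls, had 58.7, 52.0 and 62.0 TPM in prp39a, against 32.8, 34.4 and 29.2 TPM in wild type (log2 fold change 0.83 ± 0.115 SE, limma adjusted p = 0.00782). It was the only one of 16 cell wall genes that passed, where 1.73% of all genes rose. The call held in every alternative, and EXPA8 was also higher than in smd1b (limma adjusted p = 0.00547). Another expansin gene, EXPA1, changed in isoforms, with AT1G69530_P2 at 98.2 ± 0.391% in prp39a and 93.2 ± 0.786% in wild type (SD, n = 3 each; limma adjusted p = 0.000755). The auxin transporter gene PIN7 had AT1G23080_c1 at 44.5 ± 2.29% in prp39a and 28.3 ± 1.08% in wild type (SD, n = 3 each; limma adjusted p = 0.00837). Single members passed in 3 more lists: ACS6 of 14 ethylene genes, PHO1 of 15 phosphate genes and FER3 of 9 iron genes, all lower. Over all genes 2.39% fell, so these single members say little about their lists. FER3, a ferritin gene, had 83.3, 88.8 and 87.1 TPM in prp39a, against 107, 120 and 131 TPM in wild type (log2 fold change -0.46 ± 0.0768 SE, limma adjusted p = 0.0164). Its call was lost without prp39a replicate 1 or wild-type replicate 2 (adjusted p 0.0646 and 0.0677). The calls of ACS6 and PHO1 were lost without 4 and 7 single libraries. The list medians were -0.13 for ethylene, -0.17 for phosphate, -0.09 for iron, 0.08 for auxin and -0.12 for cell wall genes. The auxin median was -0.01 without prp39a replicate 1, the cell wall median was 0.02 without prp39a replicate 2, and the phosphate median lay between -0.31 and -0.02 over the single libraries left out. JAZ1, JAZ5 and JAZ7, repressors of jasmonate signalling, were the 3 of 17 jasmonate genes that passed, all lower, where 2.39% of all genes fell. Each of these calls was lost without any single prp39a library (limma adjusted p 0.0572 to 0.113).

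Cell division genes lay a little lower in prp39a, without passing gene by gene. Their list was chosen with earlier results of these data known, so its counts are not a test. All 14 tested members, cyclins, kinases and replication proteins of dividing cells, had every prp39a library below every wild-type library, as 18.6% of all genes did. None passed in limma (adjusted p 0.0564 to 0.218), while 13 had an unadjusted p under 0.05, and their median log2 fold change was -0.34 (-0.28 with size factors). The mitotic cyclin gene CYCB1;2 had 8.99, 7.39 and 8.47 TPM in prp39a, against 13.9, 11.1 and 10.9 TPM in wild type. CYCD3;1, a cyclin of the entry into the cycle, had 19.8, 23.4 and 21.6 TPM in prp39a, against 29.6, 29.4 and 25.0 TPM in wild type (limma adjusted p = 0.0675).

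Cold and drought proteins lay on the other side. Of 12 tested members, 12 had log2 fold changes above 0 (11 without wild-type replicate 1), with a median of 0.84 (0.91 with size factors), yet none passed in limma and 8 had an unadjusted p under 0.05. COR15A, which protects chloroplast membranes in the cold, had 415, 571 and 230 TPM in prp39a, against 88.1, 85.1 and 222 TPM in wild type (limma adjusted p = 0.155). Wild-type replicate 3 was high for the whole list, with a sum of 3600 TPM, against 1790 and 1910 TPM in wild-type replicates 1 and 2, and overlapped prp39a replicate 3. Without wild-type replicate 3 the median was 1.12 and 1 member passed. The gibberellin and clock lists had medians of -0.02 and -0.05, and none of their 12 and 17 tested members passed in limma, with 1 and 4 at an unadjusted p under 0.05.

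**Figure D5:**
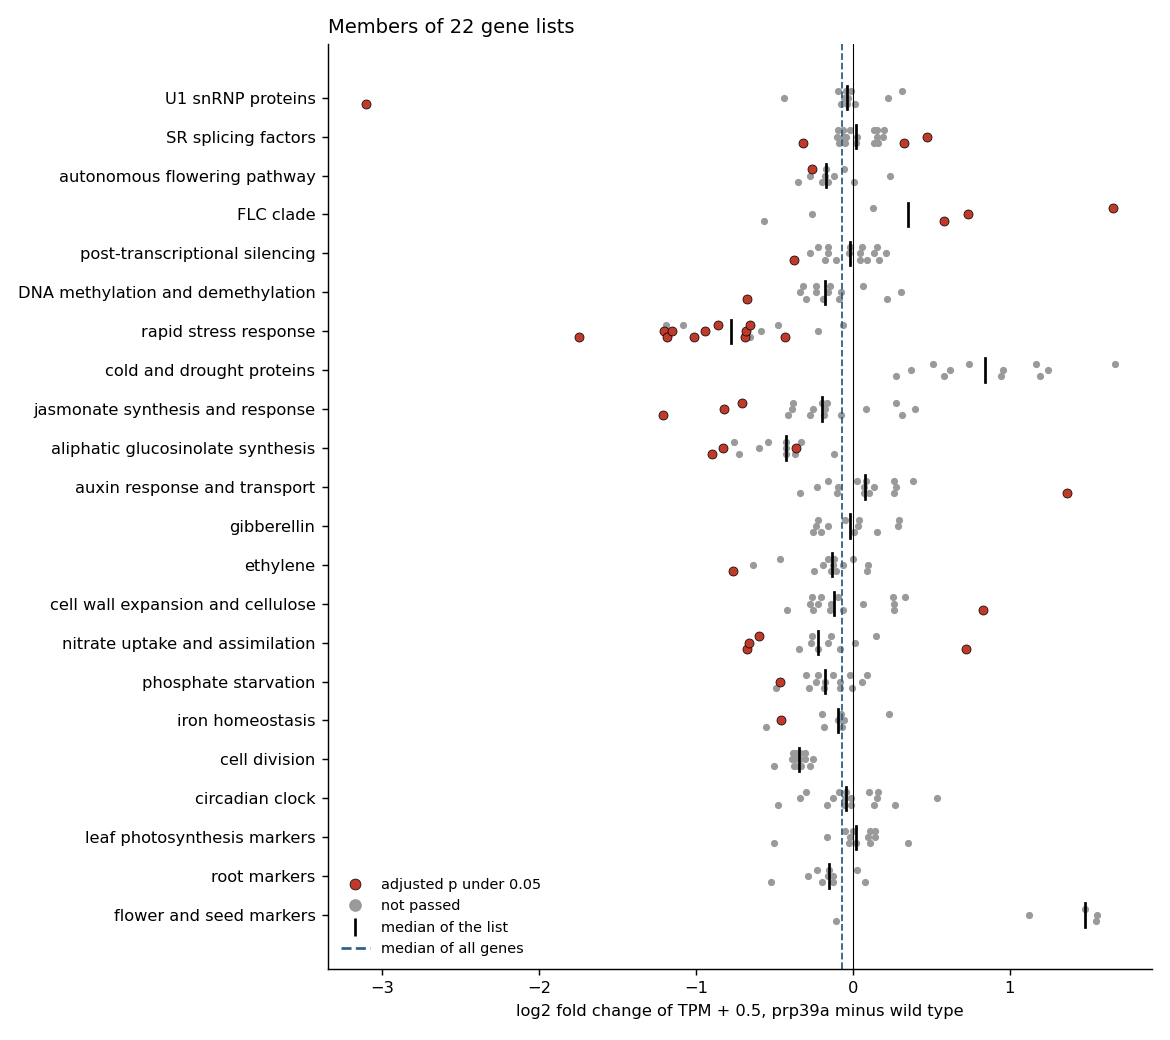
log2 fold change of TPM + 0.5, prp39a minus wild type (horizontal axis), of the tested members of 22 gene lists; red points passed at an adjusted p under 0.05, grey points did not, black bars are list medians and the dashed line is the median of all genes. The rapid stress list sits to the left with 11 red points, cell division is a tight grey group at a median of -0.34, and most U1 and SR genes lie near 0.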

How the data were processed

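RNA of whole 14-day-old seedlings was sequenced in 9 libraries, 3 per genotype, grouped by the genotype in the labels. The authors deposited 1 table of TPM per isoform, whose column names name kallisto; columns sum to 1000000, so depth is unknown. It holds 82190 isoforms of 34212 genes, and 6 of its 15 value columns matched no sample here and were not used. The submitters' processing notes name TAIR10, Trimmomatic, TopHat2, featureCounts and DESeq2, with no role or version. A program of the kallisto kind divides reads between similar isoforms, so shares are estimates. The transcript annotation is not given in the sources used here; structures of isoforms with other than dotted names are not used here.

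Gene TPM are sums over isoforms. Genes whose mean reached 1 TPM were tested on log2(TPM + 0.5) with limma 3.58.1 (R 4.3.3; lmFit, eBayes with trend) over all 9 libraries, two-sided, with Benjamini-Hochberg adjustment at 0.05. Isoforms with a mean share of 0.05 to 0.95 in those genes were tested as log2((isoform + 0.5) / (other isoforms + 0.5)). Fits were tested on simulated data. Tables were made with Python 3.11.15, pandas 2.3.3 and numpy 2.4.6. Structures and splice sites come from RefSeq's TAIR10.1 annotation and genome: 2332 of 2403 dotted isoforms tested matched by name, and 33437 of the genes matched by locus.

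Genes were named by rule: PRP39A, PRP39B and 5 neighbours on each side; the 20 largest rises and falls that passed without overlap at 5 TPM or more; per list up to 6 members that passed and 2 others; the 20 isoforms of smallest adjusted p; and the 12 largest changes of leading isoform. The annotated pairs were added after their values were seen. The comparison, members and lists were chosen with earlier results of these data known. Alternatives were pseudocounts of 0.1 and 1, no TPM filter, a minimum of 5 TPM, shares of 0.1 to 0.9, size factors, no trend, a replicate block, the 6 libraries alone and leaving out each library. Same-numbered prp39a and wild-type libraries correlated at -0.046, -0.32 and -0.401 in their deviations, so the numbers were not taken as pairs.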

Additional observations from a re-analysis of the deposited data

How the results depend on the processing

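No named value that passed changed direction under any alternative. Of 65 named genes that passed, 39 did so in every alternative that tested them, as did 75 of 110 named isoforms. Without any one library, 218 to 836 genes and 1387 to 2306 isoforms passed against wild type, and 2068 to 4443 genes passed against smd1b. With a replicate block, 343 genes passed in place of 850; the numbers do not pair the libraries, and prp39a replicate 3 correlated best with wild-type replicate 2 (0.466). With the 6 libraries alone, whose spread rests on fewer samples, 415 genes passed. Size factors gave 995 genes. Depth is unknown, so what low TPM values can show is not known. The isoform AT1G04080_ID2 of PRP39A, at 0 in prp39a, passed at a pseudocount of 0.5 but not of 1 (adjusted p = 0.432).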
